A study of Mus musculus with 4 samples.

Results

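The 34 genes described here encode the enzymes and reader proteins that act on lysine acetylation beside the sirtuins. They comprise all 11 classical histone deacetylases (Hdac1 to Hdac11), 10 histone acetyltransferases, 5 scaffold subunits of acetyltransferase complexes, 5 ING proteins and 3 BET bromodomain readers. The members were taken by name from a list, and 34 of the 78275 genes in the count table carried these names. All 34 passed the filter on low counts, as did 19736 genes in all, and their expression was compared between wild-type (WT) and Sirt7-/- cells to ask whether transcripts of other acetylation genes stand at a different level when SIRT7 is absent.

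Expression was measured by bulk mRNA sequencing in spermatogonia-enriched cells from testes of 129S1/Sv mice at postnatal day (Pnd) 5. There were 2 WT and 2 Sirt7-/- libraries, each from a pellet of 200000 cells, and no treatment is named in the labels. The Sirt7-/- mice carry a knockout allele that is present in every cell of the body, so the somatic cells of the testis also lack the gene. Interstitial cells had been washed away and somatic cells reduced by letting them adhere to a dish, which enriches spermatogonia without sorting them, and whether a pellet pooled several animals is not given in the sources used here. The study's methods call the RNA-seq replicates independent biological ones, while the labels only number the libraries, so which animals each came from is not known here and every p-value reflects variation among these 4 libraries alone. In bulk RNA, fewer cells of a type and less RNA per cell cannot be told apart.

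Histone acetyltransferases transfer the acetyl group of acetyl-CoA to lysines of histone tails, and deacetylases remove it. The classical deacetylases use a zinc ion for this reaction, whereas SIRT7 belongs to the sirtuins, which consume NAD. Acetylated lysines are bound by bromodomains, PHD fingers of the ING proteins recognise methylated lysine on the same histone tail, and in the testis acetylation is best known for the wave that precedes replacement of histones in spermatids, a stage absent at Pnd 5.

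The deleted gene behaved as labelled. Sirt7 (chr11:120509197-120516066 in GRCm39) was measured at 32.0 and 31.2 CPM (counts per 1000000 of the library) in the WT libraries and at 5.87 and 5.55 CPM in the Sirt7-/- libraries, a log2 fold change of -2.47 ± 0.11 (SE; edgeR quasi-likelihood test, adjusted p = 3.63e-06). Total counts ran from 22007504 to 22181066. The germ cell genes Zbtb16, which encodes the spermatogonial marker PLZF, and Dazl differed by -0.03 ± 0.07 and -0.02 ± 0.07 on the log2 scale. Across the germ cell marker list fold changes ran from -0.21 to 0.17, with 6 above 0 and 8 below. In the edgeR fit 2 of these markers had an unadjusted p under 0.05, beside 8.62% of all genes tested. The 14 germ cell markers summed to 2779 and 2844 CPM in WT and to 2982 and 2666 CPM in Sirt7-/-, and 10 Sertoli cell markers to 2154 and 2091 CPM against 1946 and 2432 CPM, so neither sum separated the genotypes. The 5 erythroid markers did, at 1017 and 924 CPM in WT against 1536 and 1152 CPM in Sirt7-/-. Among the 8 stromal fibroblast markers 4 were called lower in Sirt7-/-, beside 0.0456% of all genes tested. In 2 of the 8 the fold change was above 0. The number called was 4 with DESeq2, 3 with limma-voom, 3 in edgeR with a length correction and 2 with total-count scaling. The median log2 fold change of these markers was -0.50, and -0.41 without replicate 1 of Sirt7-/-. Their sums overlapped, at 1147 and 1272 CPM in WT against 1013 and 1169.5 CPM in Sirt7-/-. None of the listed markers of germ, Sertoli, myoid, Leydig, stromal, macrophage, endothelial and erythroid cells was at 0 in these libraries, and the part that such cells play in the values below was not tested.

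None of the 34 acetylation genes passed the test. At an adjusted p under 0.1 edgeR called 0 of 34, beside 0.0861% of all genes tested (0.0405% higher and 0.0456% lower in Sirt7-/-). DESeq2 and limma-voom also called 0 of 34, beside 0.335% and 0.0608% of the genes they adjusted. The same 0 of 34 held in edgeR with DESeq2 size factors (0.0912% of all genes), total-count scaling (0.0608%), a filter at 1 CPM (0.116%), the replicate number as a block (1.2%) and a length correction (0.0963%). Without a filter edgeR called no gene (0.0%), Sirt7 included, so that fit says nothing about the members. In the edgeR fit 0 of 34 had an unadjusted p under 0.05, beside 8.62% of all genes. The members were evenly split, with 17 fold changes above 0 and 17 below, and their median log2 fold change was -0.00 beside 0.00 for all genes. Values ran from -0.17 for Hdac8 to 0.15 for Brdt, and adjusted p-values from 0.615 to 0.995. In 8 of 34 genes (23.5%) both Sirt7-/- libraries lay on the same side of both WT libraries, beside 39.7% of all genes tested. Those above WT were Hdac2, Hdac5, Ing2 and Brdt, and those below were Hdac8, Kat2b, Kat6b and Brd1.

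**Figure D1:**
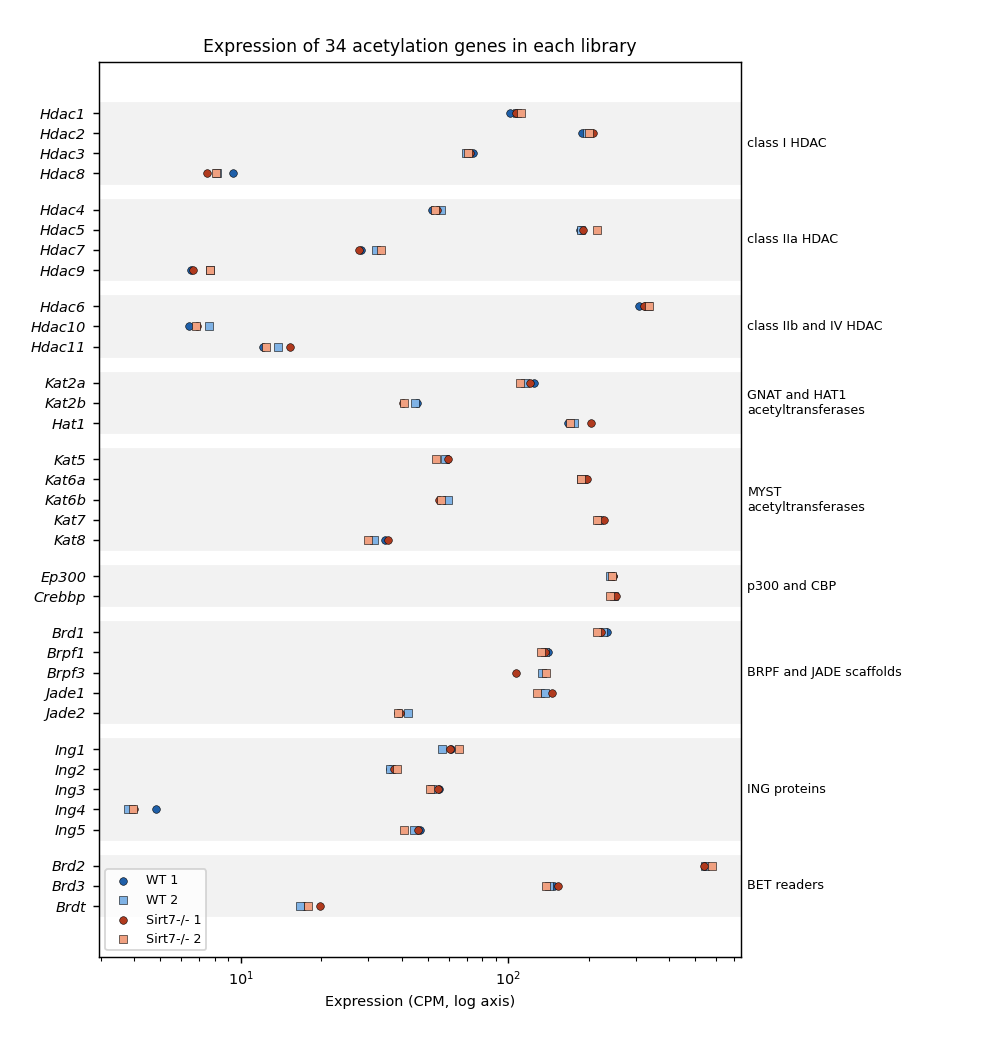
Expression of the 34 genes in each library, in CPM on a log axis, grouped by role. Circles are replicate 1 and squares replicate 2 of WT (blue) and Sirt7-/- (red); levels span from 3.79 CPM for Ing4 to 578 CPM for Brd2, and within most genes the 4 symbols lie almost on top of each other.

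A p that misses the threshold does not show that a gene did not move, so the 95% interval of each fold change gives the size of difference that these libraries leave room for. For all 34 genes the interval lay inside a 1.5-fold difference either way (0.585 on the log2 scale). Within a 1.25-fold difference (0.32), a limit chosen after seeing the data, it lay for 27 genes, and the exceptions were Hdac8, Hdac9, Hdac10, Hdac11, Brpf3, Ing4 and Brdt. Ep300 had the narrowest interval, -0.11 to 0.15, and Ing4 the widest, -0.52 to 0.30. Ing4 also had the fewest reads, 365 over the 4 libraries. The median absolute log2 fold change was 0.05 in the members, 0.07 in the 10057 genes with a mean of 10 CPM or more, and 0.11 in all genes tested. The median SE had the same order, at 0.077, 0.084 and 0.133. These sets were not matched for level, so the smaller median cannot be taken as a trait of the members.

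**Figure D2:**
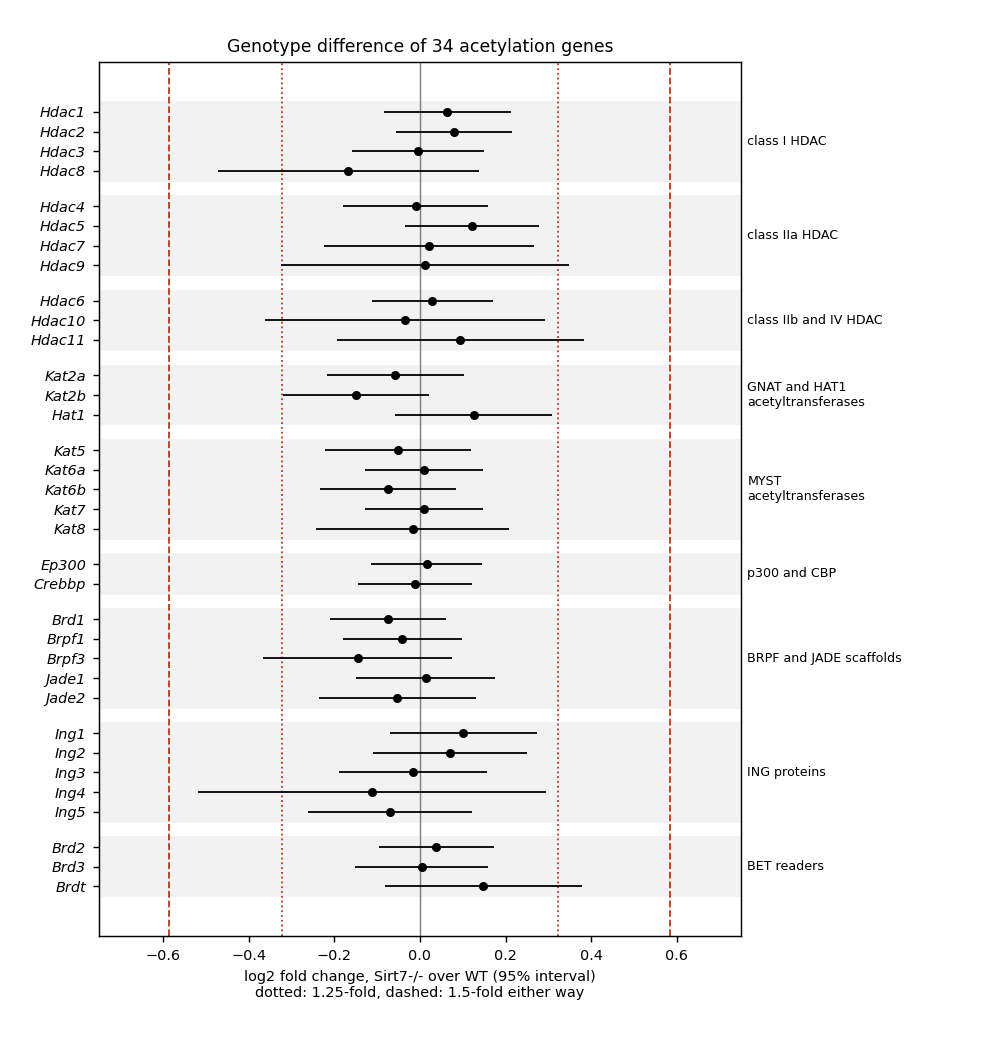
Log2 fold change (Sirt7-/- over WT, from the 4 libraries) of each gene with its 95% interval; dotted and dashed lines mark 1.25-fold and 1.5-fold differences. All 34 intervals cross 0 and lie between the dashed lines.

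Class I deacetylases are nuclear enzymes that form the catalytic core of corepressor complexes. Hdac2, a catalytic subunit of the SIN3, NuRD and CoREST complexes, was the most abundant of the group per length, at 33.3 CPM per kb of exon in WT. Its libraries gave 189 and 197 CPM in WT and 207 and 201 CPM in Sirt7-/-, so the genotypes did not overlap, and the log2 fold change was 0.08 ± 0.06 (95% interval -0.06 to 0.22, adjusted p = 0.751). Its close paralog Hdac1 stood at 102 and 108 CPM in WT and 107 and 112 CPM in Sirt7-/-, with libraries that overlapped. The ratio of Hdac1 to Hdac2 in CPM per kb was 0.670 and 0.678 in WT and 0.643 and 0.692 in Sirt7-/-, without separation by genotype. Hdac3, which acts in corepressor complexes of nuclear receptors, averaged 71.7 ± 3.12 and 71.4 ± 0.789 CPM (WT and Sirt7-/-, SD, n = 2 each). Hdac8, an X-linked deacetylase of the cohesin subunit SMC3, was rare, at 9.35 and 8.17 CPM in WT and 7.50 and 8.10 CPM in Sirt7-/-. Its fold change, -0.17 ± 0.14, was the most negative of the 34, with a 95% interval from -0.47 to 0.14 (adjusted p = 0.772).

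Class IIa deacetylases shuttle between nucleus and cytoplasm, bind MEF2 transcription factors and have little catalytic activity of their own. Hdac5 (chr11:102085245-102121072) made up 73.9% to 76.6% of the group's summed CPM per kb in every library. It was measured at 185 and 187 CPM in WT and at 190.2 and 215 CPM in Sirt7-/-. Both Sirt7-/- libraries were higher, but replicate 1 stood close to WT and replicate 2 apart from it, and the log2 fold change of 0.12 ± 0.07 did not pass the test (95% interval -0.04 to 0.28, adjusted p = 0.666). Hdac7 was at 28.2 and 32.1 CPM in WT and 27.6 and 33.6 CPM in Sirt7-/-, a wider gap within each genotype than between them. Hdac4 was at 54.0 ± 3.10 and 53.6 ± 0.672 CPM (WT and Sirt7-/-, SD, n = 2 each). Hdac9, the least abundant gene of the 34 at 0.453 CPM per kb in WT, was at 7.11 ± 0.802 and 7.16 ± 0.745 CPM.

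The class IIb and class IV enzymes act mainly outside chromatin. Hdac6, the cytoplasmic tubulin deacetylase and the other X-linked member, was the most abundant deacetylase by annotated exon length, at 43.3 CPM per kb in WT. The WT libraries gave 309.8 and 334 CPM and the Sirt7-/- libraries 322 and 336 CPM, overlapping values with a log2 fold change of 0.03 ± 0.06 (95% interval -0.11 to 0.17, adjusted p = 0.933). Hdac11, a fatty-acyl lysine hydrolase and the lone class IV enzyme, was at 12.2 and 13.8 CPM in WT and 15.3 and 12.5 CPM in Sirt7-/-. Hdac10, a polyamine deacetylase, was at 7.02 ± 0.867 and 6.85 ± 0.0277 CPM (WT and Sirt7-/-, SD, n = 2 each).

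Acetyltransferases of the GNAT family and HAT1 include the enzymes closest to the histone mark that SIRT7 removes, since the yeast homologue of KAT2A, Gcn5, is known to acetylate lysine 36 of histone H3. Kat2a, a subunit of the SAGA and ATAC coactivators, was at 125 and 116 CPM in WT and 121 and 111 CPM in Sirt7-/-. These values overlapped, with a log2 fold change of -0.06 ± 0.07 (95% interval -0.22 to 0.10, adjusted p = 0.863). Kat2b (ENSMUSG00000000708, chr17:53873889-53979749), which encodes PCAF, had the smallest unadjusted p of the 34 genes, 0.0802 in the edgeR fit. It was measured at 45.5 and 44.7 CPM in WT and at 40.5 and 40.9 CPM in Sirt7-/-, a separation wider than the gap between replicates of either genotype. The log2 fold change was -0.15 ± 0.08 (95% interval -0.32 to 0.02), with an adjusted p of 0.615. Hat1 (ENSMUSG00000027018, chr2:71218392-71271966), the enzyme that acetylates newly made histone H4 before it is laid on DNA, was the most abundant acetyltransferase by annotated exon length, at 44.0 CPM per kb in WT. Levels were 168 and 176 CPM in WT and 204 and 170.3 CPM in Sirt7-/-, so that replicate 1 of the Sirt7-/- libraries was high and replicate 2 lay between the WT values (log2 fold change 0.13 ± 0.08, 95% interval -0.06 to 0.31, adjusted p = 0.708).

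The MYST acetyltransferases acetylate histone H3 and H4 within multisubunit complexes. Kat7, which encodes HBO1, was the most abundant of them at 39.7 CPM per kb in WT, with 220.4 and 219 CPM in WT and 228 and 214 CPM in Sirt7-/-. Kat6b, which encodes MORF, was at 57.9 and 59.6 CPM in WT and at 55.1 and 56.4 CPM in Sirt7-/-, lower in both but with a log2 fold change of only -0.08 ± 0.07 (95% interval -0.23 to 0.08, adjusted p = 0.803). Kat5, the TIP60 catalytic subunit, was at 59.1 and 58.4 CPM in WT and at 59.6 and 53.8 CPM in Sirt7-/-. The groups overlapped in Kat5, as they did in the remaining pair. Kat6a, which encodes MOZ, was at 191 ± 5.55 and 193 ± 6.15 CPM, and Kat8, the enzyme for lysine 16 of histone H4, at 33.1 ± 2.19 and 32.7 ± 3.97 CPM (WT and Sirt7-/-, SD, n = 2 each).

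Ep300 and Crebbp encode the coactivators p300 and CBP, which acetylate histone H3 at enhancers. Ep300 was measured at 246 and 241 CPM in WT and at 247 and 245 CPM in Sirt7-/-. Crebbp was measured at 249.8 and 249 CPM in WT and at 254 and 241 CPM in Sirt7-/-. Their fold changes were 0.02 ± 0.06 (95% interval -0.11 to 0.15, adjusted p = 0.966) and -0.01 ± 0.06 (-0.14 to 0.12, adjusted p = 0.980) on the log2 scale, both among the narrowest intervals of the 34 genes.

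BRPF and JADE proteins hold MYST enzymes on chromatin and direct them to histone H3 or H4. Brd1, also known as BRPF2, was at 235 and 226 CPM in WT and at 223 and 215 CPM in Sirt7-/-. Both Sirt7-/- libraries were lower, with a log2 fold change of -0.07 ± 0.06 (95% interval -0.21 to 0.06, adjusted p = 0.772). Brpf3 (ENSMUSG00000063952, chr17:29004247-29058923), a partner of KAT7, was measured at 138 and 134 CPM in WT and at 107 and 138 CPM in Sirt7-/-. Replicate 1 of the Sirt7-/- libraries was thus low and replicate 2 at the WT level, the widest gap between Sirt7-/- libraries in any of the 34 genes, 0.365 on the log2 scale (log2 fold change -0.15 ± 0.10, 95% interval -0.37 to 0.07, adjusted p = 0.719). Brpf1 was at 139 ± 2.51 and 135 ± 3.35 CPM, Jade1 at 136 ± 2.17 and 137 ± 12.6 CPM and Jade2 at 40.5 ± 2.36 and 39.1 ± 0.489 CPM (WT and Sirt7-/-, SD, n = 2 each).

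ING proteins bring acetyltransferase or deacetylase complexes to histone H3 methylated at lysine 4. Ing1, a subunit of the SIN3 deacetylase complex, was the most abundant per length, and was measured at 61.3 and 56.5 CPM in WT and at 60.8 and 65.5 CPM in Sirt7-/- (log2 fold change 0.10 ± 0.08, adjusted p = 0.748). Ing2, its paralog in the same complex, was at 36.1 and 36.3 CPM in WT and at 37.5 and 38.6 CPM in Sirt7-/-, which did not overlap yet differed by only 0.07 ± 0.08 (adjusted p = 0.845). Subunits of acetyltransferase complexes showed overlapping values. Ing3, of the TIP60 complex, was at 53.6 ± 2.56 and 53.0 ± 2.57 CPM, and Ing5, of the MYST complexes, at 45.7 ± 1.79 and 43.5 ± 3.83 CPM (WT and Sirt7-/-, SD, n = 2 each). Ing4, of the KAT7 complexes, was the lowest of the 34 in CPM, at 4.30 ± 0.723 and 3.98 ± 0.0296 CPM, and is uncertain because of a gene that shares its sequence.

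BET proteins read acetylated histones through paired bromodomains. Brd2, which acts in transcription elongation, was the most abundant of all 34 genes, at 64.7 CPM per kb in WT, and its level in CPM was above that of 99.2% of tested genes. It was measured at 546 and 544 CPM in WT and at 541 and 578 CPM in Sirt7-/- (log2 fold change 0.04 ± 0.06, 95% interval -0.10 to 0.17, adjusted p = 0.897). Its paralog Brd3 was at 146 ± 4.49 and 146 ± 10.8 CPM (WT and Sirt7-/-, SD, n = 2 each). Brdt (ENSMUSG00000029279, chr5:107479024-107534926), the testis form known for its roles in spermatocytes and spermatids, was already measurable at Pnd 5 but low, at 3.22 CPM per kb in WT. It was measured at 17.3 and 16.6 CPM in WT and at 19.7 and 17.8 CPM in Sirt7-/-. Both Sirt7-/- libraries were higher, and its log2 fold change of 0.15 ± 0.10 was the most positive of the 34, with a 95% interval from -0.08 to 0.38 (adjusted p = 0.725).

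To show the sequence at the start of the genes on which the description above turns, the promoter windows are given for Kat2b, which had the smallest p, for Brdt, which had the most positive fold change, and for Hat1 and Brpf3, in which a lone library set the difference. Each window is read from GRCm39 on the plus strand and runs from 250 bases before the start of the Ensembl canonical transcript to 50 bases from it on. The windows are chr17:53873749-53874048 (Kat2b), chr5:107478774-107479073 (Brdt), chr2:71218142-71218441 (Hat1) and chr17:29019478-29019777 (Brpf3). The Kat2b and Brpf3 canonical transcripts start inside the annotated gene. Capitals mark a CCAAT box (CCAAT, or ATTGG on the other strand), a GC box (GGGCGG) or an E-box (CACGTG).
Kat2b: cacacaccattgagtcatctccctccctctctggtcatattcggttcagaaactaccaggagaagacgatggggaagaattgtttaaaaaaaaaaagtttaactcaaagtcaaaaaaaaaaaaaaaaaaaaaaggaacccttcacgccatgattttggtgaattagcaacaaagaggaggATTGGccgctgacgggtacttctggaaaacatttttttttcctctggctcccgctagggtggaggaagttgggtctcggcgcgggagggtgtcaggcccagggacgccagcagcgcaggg
Brdt: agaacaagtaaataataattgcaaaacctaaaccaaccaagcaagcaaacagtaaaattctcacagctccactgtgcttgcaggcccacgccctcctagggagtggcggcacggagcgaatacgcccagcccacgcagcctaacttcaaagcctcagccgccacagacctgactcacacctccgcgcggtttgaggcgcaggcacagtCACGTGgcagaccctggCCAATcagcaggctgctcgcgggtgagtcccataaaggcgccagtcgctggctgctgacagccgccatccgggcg
Hat1: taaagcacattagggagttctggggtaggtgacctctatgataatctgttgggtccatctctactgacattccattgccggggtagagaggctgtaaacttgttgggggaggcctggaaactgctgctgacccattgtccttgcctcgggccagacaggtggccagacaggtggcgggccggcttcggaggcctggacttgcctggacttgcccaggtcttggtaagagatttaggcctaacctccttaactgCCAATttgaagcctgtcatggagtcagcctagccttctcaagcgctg
Brpf3: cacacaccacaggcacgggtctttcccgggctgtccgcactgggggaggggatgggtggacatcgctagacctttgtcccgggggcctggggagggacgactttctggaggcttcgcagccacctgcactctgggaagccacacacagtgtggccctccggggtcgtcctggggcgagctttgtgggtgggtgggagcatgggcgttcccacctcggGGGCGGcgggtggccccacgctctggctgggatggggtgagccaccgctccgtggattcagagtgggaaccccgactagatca

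The Kat2b, Hat1 and Brdt windows held a CCAAT box, which in Hat1 lay just past the transcript start. Brdt also held an E-box beside it, and Brpf3 a GC box. There were 11, 6, 19 and 18 CpG dinucleotides in the windows of Kat2b, Hat1, Brdt and Brpf3. Over all 34 members the median was 19.5 CpG (range 2 to 48), beside 16 (0 to 67) in 14928 tested protein-coding genes. Searched on both strands, CCAAT was found in 19 of 34 member windows (55.9%) beside 39.5% of all windows. GGGCGG was in 23 (67.6%) beside 56.2%, CACGTG in 4 (11.8%) beside 9.74%, TATAAA in 2 (5.88%) beside 8.31%, TGACGTCA in 2 (5.88%) beside 3.01% and the NRF1 palindrome in 0 beside 1.63%. Matches to different motifs overlapped in 0 members. These matches describe the letters in the windows and were not tied to the expression values.

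Levels were ordered in WT by CPM per kb of annotated exon. Brd2 led with 64.7, followed by Hat1 with 44.0 and Hdac6 with 43.3, whose WT libraries overlapped. Kat7 (39.7), Hdac2 (33.3) and Kat2a (27.5) came next, each separate from its neighbours. Brd1 (22.5) and Hdac1 (22.4) overlapped. At the lower end stood Hdac8 with 1.03, Ing4 with 0.809 and Hdac9 with 0.453, each separate from the next. Sirt7 itself had 6.14 CPM per kb in WT, between Kat2b (8.90) and Jade2 (3.69). With the length of the Ensembl canonical transcript in place of all annotated exons, a scale chosen after seeing the data, Brd2 stayed first at 102.5 and Hdac9 last at 0.821, but Hdac2 moved to the second place at 91.2, above Hdac6 at 67.2, and Kat7 at 61.7 stood level with Hat1 at 61.6.

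Summed levels of the role groups showed where the transcripts lay as a whole. The 11 deacetylases together reached 144 and 151 CPM per kb in WT and 151 and 155 CPM per kb in Sirt7-/-, a mean 3.77% higher in Sirt7-/-. The 10 acetyltransferases reached 204 and 202 CPM per kb in WT and 214 and 196 CPM per kb in Sirt7-/-, a mean 0.825% higher. Their ratio, deacetylases over acetyltransferases, was 0.706 and 0.748 in WT and 0.706 and 0.794 in Sirt7-/-, so that the lower Sirt7-/- ratio equalled the lower WT ratio to 3 digits. No sum was tested, since 2 libraries against 2 cannot give an exact permutation p below 0.33.

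The sum of all deacetylases did not overlap between genotypes in CPM per kb but did in CPM, at 974 and 1022 in WT and 1016 and 1056 in Sirt7-/-. The sums that did not overlap on either scale were those of the class I deacetylases (72.2 and 73.8 against 75.9 and 75.6 CPM per kb), the BET readers (87.0 and 85.9 against 87.5 and 89.6) and, in the other direction, the BRPF and JADE scaffolds (75.5 and 74.4 against 72.2 and 71.7). Separation of this kind is common with 2 libraries per genotype, and was seen in 39.7% of all single genes tested. Mean differences of the role groups ran from -3.93% for the scaffolds to 6.66% for class IIa, the latter with overlapping libraries. Abundant genes carried these sums. Brd2 gave 73.4% to 76.6% of the BET sum, Hdac6 88.8% to 90.5% of the class IIb and IV sum, and Hat1 53.3% to 59.5% of the GNAT and HAT1 sum.

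**Figure D3:**
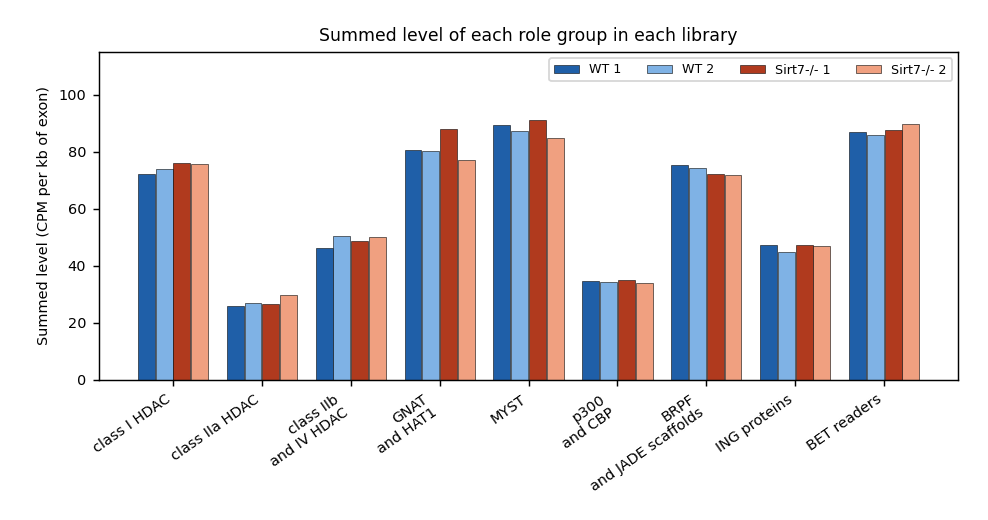
Summed level of each role group, in CPM per kb of exon, with a bar for each of the 2 WT (blue) and 2 Sirt7-/- (red) libraries and no error bars. In every group the 4 bars are of similar height; the GNAT and HAT1 sum is highest in replicate 1 of Sirt7-/-, 87.9, and lowest in replicate 2, 77.0.

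The median gap between the Sirt7-/- libraries was 0.09 on the log2 scale, beside 0.07 between the WT libraries, and the Sirt7-/- gap was the wider in 19 of 34 genes. In genes with a mean of 10 CPM or more the gaps were 0.10 and 0.07. The genotype difference exceeded both replicate gaps in 5 of 34 genes (14.7%), beside 26.6% of all genes tested, and the 5 were Hdac2, Kat2b, Kat6b, Brd1 and Ing2. Against the WT mean, Hat1 stood at 0.25 in replicate 1 and -0.01 in replicate 2 of Sirt7-/-, and Brpf3 at -0.34 and 0.03. Hdac5 had the reverse order, 0.03 and 0.21.

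**Figure D4:**
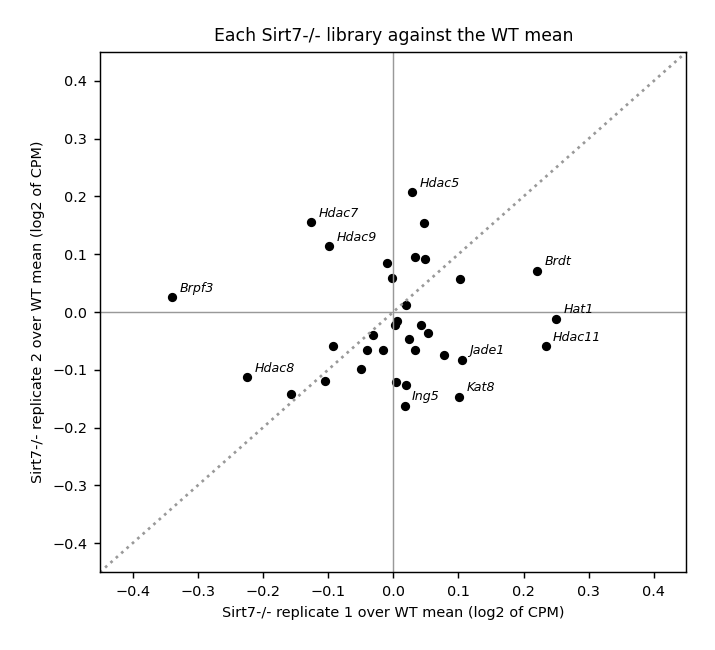
Log2 ratio of each Sirt7-/- library to the WT mean (CPM) for the 34 genes, replicate 1 on the horizontal and replicate 2 on the vertical axis; the dotted line marks equal values. Brpf3, Hat1 and Hdac11 lie far out along the horizontal axis and near 0 on the vertical, whereas Hdac5 lies high on the vertical axis.

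Leaving out replicate 2 of Sirt7-/- brought the only calls among the members. In that fit Hat1 was called higher (log2 fold change 0.25 ± 0.06, adjusted p = 0.0622) and Brpf3 lower (-0.34 ± 0.06, adjusted p = 0.0220), in a comparison that called 465 genes, 2.23% of those tested, and in which the lone Sirt7-/- library was assumed to vary like the WT libraries. Without replicate 1 instead, 0.0382% of genes and no member were called, Hat1 was at -0.01 and Brpf3 at 0.02 and Hdac5 at 0.21 ± 0.05 with an adjusted p of 0.405. Replicate 1 of Sirt7-/- had the highest germ cell and the lowest Sertoli cell marker sum of the 4 libraries, and replicate 2 the reverse, as given above. The part of this difference in the values of Hat1, Brpf3 and Hdac5 was not tested.

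Fold changes in these libraries were lower in longer genes. Across 10057 genes with a mean of 10 CPM or more, the Spearman correlation of exon length with log2 fold change was -0.30, a description across genes that share the same 4 libraries. Median fold changes ran from 0.06 in the shortest of 5 length bins to -0.04 in the longest. Among the 30 members at 10 CPM or more the correlation was -0.26. A fit corrected for length moved no member by more than 0.05, about the shift of Kat6b, which has 20128 exon bases, and called 0 of 34.

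**Figure D5:**
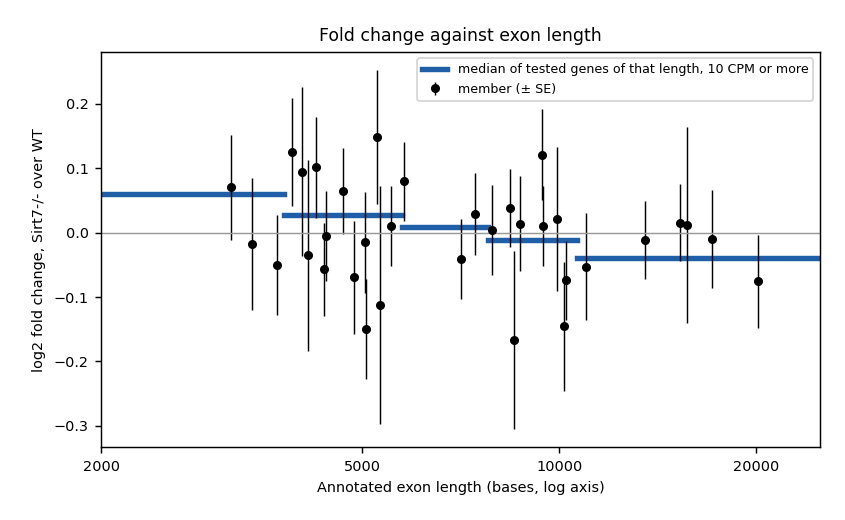
Log2 fold change (Sirt7-/- over WT) of each of the 34 genes, with its SE, against annotated exon length on a log axis; blue bars give the median of tested genes with a mean of 10 CPM or more in 5 length bins. The bars step down from 0.06 to -0.04, and the members scatter on both sides of them.

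Some member counts depend on how reads with several alignments and reads of overlapping genes were assigned, which is not given in the sources used here. Of the runs of 50 bases in the canonical Hdac1 transcript, 58.5% also occur in other genes, mostly in the pseudogene Hdac1-ps (chr17:78799011-78800454). Hdac1-ps had 560 and 607 counts in WT and 652 and 660 in Sirt7-/-. Adding them to Hdac1 gave 2804 and 2995 counts in WT and 3012 and 3120 in Sirt7-/-, which did not overlap, unlike the CPM of Hdac1 alone. The log2 ratio was 0.09 in place of 0.06. Ing4 shares 93.7% of such runs with the long noncoding RNA gene Gm44597 on the same strand, which had 77 counts in all. Kat2b shares 7.75% with a pseudogene that had 2 counts, and the remaining members share at most 1.37%. Exons of genes on the opposite strand cover 30.0% of Hdac5, 24.1% of Hdac7, 22.3% of Jade1 and 17.6% of Kat5, in G6pc3, Slc48a1, Sclt1 and Rnaseh2c respectively, and the libraries were strand-specific, but the strand setting of the counting is not given.

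The members lie on 18 chromosomes. Chromosome 11, which carries Sirt7, holds Hdac5, Kat2a, Kat7 and Jade2, at distances from Sirt7 of 18.4, 19.9, 25.3 and 68.8 Mb. Their log2 fold changes were 0.12, -0.06, 0.01 and -0.05, on both sides of 0.

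Genes that work with the members were tested in the same fit, from lists of complex subunits, other acetyl-lysine readers and enzymes of acetyl-CoA supply. With all 4 libraries and no block, edgeR and DESeq2 called 0 genes in each list, beside the 0.0861% given above. Among 46 subunits of acetyltransferase complexes 22 fold changes were above 0 and 24 below, with a median of -0.02. In the edgeR fit 0 had an unadjusted p under 0.05, beside 8.62% of all genes tested. The smallest p-values were those of Taf5l, a SAGA subunit (0.13 ± 0.07), and Ruvbl1, an ATPase of the TIP60 complex (0.12 ± 0.07). Ruvbl1 and the p300 and CBP partner Cited2 (0.06 ± 0.07) had the highest levels per length.

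Among 40 tested subunits of deacetylase complexes 16 were above 0 and 24 below, with a median of -0.03. An edgeR unadjusted p under 0.05 was seen in 8.62% of all genes tested and in 5 of these subunits. They included Chd3, a remodelling ATPase of NuRD, with 242 and 253 CPM in WT and 192 and 223 CPM in Sirt7-/- (-0.26 ± 0.08, adjusted p = 0.408). In the fit without replicate 2 of Sirt7-/-, Chd3 was called lower (-0.36 ± 0.06, edgeR adjusted p = 0.00906). Sin3b, a scaffold of the SIN3 complex, was higher in both Sirt7-/- libraries (0.17 ± 0.06, adjusted p = 0.501). Chd4, the main NuRD ATPase and the most abundant of the list per length, was at -0.09 ± 0.06.

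Among the 33 genes listed as other readers 8 were above 0 and 25 below, with a median of -0.04. Whether each of them binds acetylated lysine was not tested. In the edgeR fit 4 had an unadjusted p under 0.05, beside 8.62% of all genes tested. The median exon length of the listed genes was 12526 bases. With the length correction 15 were above 0 and 18 below, with a median of -0.02, and 1 had an unadjusted p under 0.05. Without replicate 2 of Sirt7-/- 14 were above 0 and 19 below, with a median of -0.01. Without replicate 1 of Sirt7-/- instead, 8 were above 0 and 25 below, with a median of -0.07. All remaining settings gave 7 to 10 above 0. Bptf, the bromodomain subunit of the NURF remodeller, was at 236 and 236 CPM in WT and 204 and 203 CPM in Sirt7-/- (-0.21 ± 0.06, adjusted p = 0.354), and the methyltransferase Kmt2a was at -0.17 ± 0.06 (adjusted p = 0.508). The most abundant genes of this list per length, Trim28 and Yeats4, were at -0.06 ± 0.06 and 0.04 ± 0.08.

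Of the 9 genes listed under acetyl-CoA supply 5 were above 0 and 4 below, with a median of 0.03. The supply itself was not measured. Beside 8.62% of all genes tested, 1 had an edgeR unadjusted p under 0.05. This was Acat2, an acetoacetyl-CoA thiolase of the sterol pathway, with 76.0 and 85.1 CPM in WT against 100.03 and 101 CPM in Sirt7-/- (0.32 ± 0.07, adjusted p = 0.253). In the fit without replicate 2 of Sirt7-/- it was called higher (0.32 ± 0.08, edgeR adjusted p = 0.0698). Acly, the ATP citrate lyase that makes acetyl-CoA for histone acetylation, was at 0.13 ± 0.06 (adjusted p = 0.587), and Pdhb, a subunit of pyruvate dehydrogenase, at 0.03 ± 0.06.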

How the data were processed

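RNA from 2 WT and 2 Sirt7-/- pellets was sequenced as strand-specific mRNA libraries with paired reads of 150 bp, after which the provider filtered the reads. The authors used HISAT2 for alignment to GRCm39 and featureCounts for counting, and the deposited table holds raw, whole-number counts. The sources used here do not give versions, annotation, strand setting or the handling of multi-mapped reads. Of 78275 Ensembl identifiers, 78263 matched GENCODE M39 and 12 did not, and that annotation supplied symbols, positions and exon lengths.

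Sample labels gave the groups. The model was fitted in R 4.3.3 with edgeR 4.0.16 (filterByExpr with a minimum count of 10, TMM factors from 0.994 to 1.00, quasi-likelihood F test, no covariates). Benjamini-Hochberg adjustment ran over 19736 genes, and genes were called under 0.1. To obtain the SE, the log2 fold change was divided by the root of F, and 95% intervals used the t distribution with the total degrees of freedom of the fit. CPM was scaled by the effective library size. Each library held 22007504 to 22181066 counts, so that precision at a given CPM was alike in all.

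Alternatives were DESeq2 1.42.0, limma-voom (limma 3.58.1), scaling by DESeq2 size factors or by total counts, 2 other filters, a stricter threshold (0.05), blocking on the replicate number, a length correction and each library left out in turn. Sequences were read from GRCm39 at the start of Ensembl canonical transcripts. Named genes were Sirt7, Zbtb16, Dazl, the 34 members (values per library for the 2 smallest p-values and the highest level per length in each role group) and, from each list of partner genes, any called gene or else the 2 with the smallest p and the 2 with the highest level per length, of which 1 gene is not reported here. Genes that share or overlap sequence with a member were added after values were seen, as were the libraries' values for Hdac1 and Kat2a. Members and lists were chosen with earlier results of these data known.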

Additional observations from a re-analysis of the deposited data

How the results depend on the processing

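The count of called members was 0 of 34 with every tool, scaling, filter, threshold, length correction and block tried, of which the fit without a filter called no gene and so shows nothing, and ranged from 0 to 2 when a library was left out. Over all genes 17 were called. The count was 48 with DESeq2, 9 at an adjusted p under 0.05, 0 without a filter on low counts (2032 at an unadjusted p under 0.05), and 0 to 465 when a library was left out (596 and 824 at an unadjusted p under 0.05 in the fits that called 0, without WT replicate 1 and 2). With the replicate number as a block, which only 2 pairs and no label support, 236 genes were called, 0 of them members. The deviations of same-numbered libraries correlated at 0.136 over 10062 genes. Sirt7 kept its direction throughout. Without a filter it stood at -2.46 (edgeR adjusted p = 0.433) and ranged from -2.51 to -2.42 when a library was left out, not called in the fits without a WT library, so those fits cannot show that a member is stable. Among the partner lists, deacetylase complex subunits had 0 to 1 call when a library was left out, and acetyl-CoA supply 0 to 1, and 1 with the block (Acat2, 0.32 ± 0.07, edgeR adjusted p = 0.0409). Of 408 alternative fold changes of members, 390 lay within the SE of the edgeR value from all libraries. All of the others came from leaving out a Sirt7-/- library. Most of the 408 reused all 4 libraries and moved no member by more than 0.05, which is below the SE of every member. Those fits therefore say little about stability. In the fits that left a library out, the largest shift of a member was 0.16 to 0.19. The sign of the fold change differed in 3 members under total-count scaling, 3 with the length correction, 2 without a filter and 5 to 11 when a library was left out. In 29 to 34 members the 95% interval stayed inside 1.5-fold, with the lowest count without WT replicate 2, and in all 34 inside 2-fold. The depth limits the members with the fewest counts most, such as Ing4 with 365 in all. The Ing4 count also depends on how reads shared with Gm44597 were assigned.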
